A study of Mus musculus with 66 samples.

Results

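Sugars, nucleosides, vitamins, bile acids and fatty acids enter and leave intestinal cells through membrane proteins of the solute carrier (SLC) families. Carriers of 16 Slc number families and of the Slco family were taken by gene symbol from the RNA table of mouse small intestinal organoids. The rule required 1 of the family numbers 2, 5, 10, 19, 22, 23, 27, 28, 29, 35, 37, 44, 46, 47, 51 or 52 followed by a or b, or a symbol that starts with Slco. It found 53 transcripts of 51 genes among 9481 transcripts, and all 53 passed the filter on low counts. The 53 transcripts were grouped into roles by family and known substrates. There were 12 for hexoses and polyols, 4 for sugar phosphates, 6 for nucleosides, 8 for vitamins and 5 for bile acids and organic anions. A further 3 belonged to organic cations, 3 to fatty acids, 4 to choline and 7 to nucleotide sugars and the sulfate donor, and Slc5a12, a monocarboxylate carrier, stood alone. The table holds only transcripts whose proteins the study also quantified, so well-known carriers without an entry, such as Slc10a2, Slc22a4, Slc22a5, Slc19a3 and Slco2a1, were not analysed here.

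All organoids came from Lgr5 GFPDTR/+ mice of mixed C57BL/6 and 129/ola background, in which 1 Lgr5 allele carries a GFP and diphtheria toxin receptor reporter. ENR, the reference medium, contained EGF, Noggin and R-Spondin, the last as 5% conditioned medium, which potentiates Wnt signaling. CV organoids were grown in ENR with 3 µM CHIR99021, a GSK3 inhibitor that activates Wnt signaling, and 1 mM valproic acid, which inhibits histone deacetylases and was used to act on Notch signaling. EN organoids were grown in ENR from which R-Spondin had been left out, and for a shorter time than CV organoids. CV was meant to enrich stem cells and EN differentiated cells, mainly enterocytes, so EN and CV differ in more than 1 agent, whereas the EN and ENR media differ in R-Spondin alone. RNA-seq and ATAC-seq, which measures open chromatin, comprised 4 libraries per culture. For the histone marks H3K4me3, H3K27ac and H3K27me3, 3 ChIPmentation libraries per culture were used, and for the transcription factor Hnf4g 1. The labels do not say whether libraries came from separate cultures, so p-values measure the spread between these libraries, which may be technical.

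In the small intestine, Na+-coupled carriers of the brush border pull glucose, nucleosides and vitamins from the lumen into the enterocyte against their gradients. Facilitative carriers, such as the GLUT proteins of the Slc2 family and the equilibrative nucleoside transporters of the Slc29 family, let their substrates run down a gradient, and the Slc51a-Slc51b pair releases bile acids across the basolateral membrane. Cells also hold carriers inside, in the endoplasmic reticulum (Slc37a4, Slc35b1) and in the Golgi (Slc35), where glucose-6-phosphate is cleaved and nucleotide sugars feed glycosylation.

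Sequences are shown for 3 carriers whose start-site chromatin opened beside a large RNA rise. The others are the distal regions of Slc2a5 and of Slc5a1 with the most Hnf4g reads in EN, and a second distal Slc5a1 region. That second region was taken because it held the HNF4 core given below, so its match was fixed in advance. The sequences were chosen after the values were seen. The upstream window of Slc5a11 was read in the same way, held no HNF4 match and is not printed. Unprinted too are 4 distal regions of Slc2a2, Slc2a5 and Slc5a4a with 52 to 68 Hnf4g reads in EN, which held no HNF4 match. The second Slc5a1 region had 39 reads. Distal regions of further carriers with more reads than that are not printed either. Among them, those of Slc19a1 (152 reads), Slc37a1 (138) and Slc27a1 (94) held no HNF4 match, and that of Slc37a3 (106) held the relaxed form. They are 250 bases of the mouse genome NCBIM37 (mm9), printed 5′ to 3′ in lower case, with matches to the HNF4 core CAAAGTCCA or the relaxed form CAAAGNNCA in capitals. HNF4 proteins, including Hnf4g, are known to bind such a core. The first 3 windows end at the base before an annotated start site and follow the strand of the gene, and the other 3 are centred on a region and follow the plus strand.
Slc51a, upstream, minus strand, chr16:32487966-32488215: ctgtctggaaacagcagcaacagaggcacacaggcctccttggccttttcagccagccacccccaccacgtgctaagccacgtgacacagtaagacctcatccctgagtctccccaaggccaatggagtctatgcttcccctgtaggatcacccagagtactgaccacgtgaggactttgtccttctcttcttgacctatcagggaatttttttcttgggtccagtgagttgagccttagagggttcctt
Slc51b, upstream, minus strand, chr9:65270581-65270830: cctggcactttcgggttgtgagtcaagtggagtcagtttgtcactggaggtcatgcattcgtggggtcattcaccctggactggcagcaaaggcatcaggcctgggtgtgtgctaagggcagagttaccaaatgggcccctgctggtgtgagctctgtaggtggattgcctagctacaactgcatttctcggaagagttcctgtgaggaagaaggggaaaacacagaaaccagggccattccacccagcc
Slc28a1, upstream, plus strand, chr7:88259435-88259684: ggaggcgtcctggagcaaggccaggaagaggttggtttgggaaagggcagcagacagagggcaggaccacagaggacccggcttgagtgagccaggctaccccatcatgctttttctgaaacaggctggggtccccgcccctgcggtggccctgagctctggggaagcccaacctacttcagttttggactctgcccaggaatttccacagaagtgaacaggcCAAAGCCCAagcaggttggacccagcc
Slc2a5, distal, chr4:149506910-149507159: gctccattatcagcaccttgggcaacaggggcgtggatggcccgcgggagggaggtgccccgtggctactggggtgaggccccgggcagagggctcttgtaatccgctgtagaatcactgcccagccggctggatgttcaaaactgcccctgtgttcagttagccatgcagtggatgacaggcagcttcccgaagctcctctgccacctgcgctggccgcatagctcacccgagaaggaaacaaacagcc
Slc5a1, first distal, chr5:33434341-33434590: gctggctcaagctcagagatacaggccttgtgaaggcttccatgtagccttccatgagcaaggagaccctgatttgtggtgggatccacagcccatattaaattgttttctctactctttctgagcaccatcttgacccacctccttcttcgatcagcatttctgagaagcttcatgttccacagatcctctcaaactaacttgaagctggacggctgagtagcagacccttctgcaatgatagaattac
Slc5a1, second distal, chr5:33435161-33435410: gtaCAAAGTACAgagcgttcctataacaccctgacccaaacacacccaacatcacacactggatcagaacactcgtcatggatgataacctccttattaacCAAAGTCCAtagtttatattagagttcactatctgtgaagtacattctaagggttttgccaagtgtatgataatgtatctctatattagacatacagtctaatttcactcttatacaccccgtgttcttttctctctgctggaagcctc
None of the 6 windows overlapped an annotated exon. The Slc2a5 window lay within the Slc2a5 gene, in an intron, 3699 bp from the nearest start site, and the pair near Slc5a1 lay outside genes, with their regions 11940 and 11502 bp from the Slc5a1 start site. The window of Slc28a1 held 1 relaxed core starting at base 224, and the second Slc5a1 window held the core itself at base 102 and a relaxed core at base 4. No match to these letters was found in the other 4 windows. Both motifs were searched on both strands, and every core is also a relaxed core. The core occurred upstream of 0.379% of all annotated start sites and of 2 of 211 start sites of the members, and in 2.47% of all distal regions against 4 of 206 distal regions of the members. The relaxed form occurred in 5.12% and 6.64% of the upstream windows and in 14.3% and 13.1% of the distal windows, of all genes and of the members respectively.

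Each RNA library held between 5630951 and 8859744 expected counts on the listed transcripts, and 3 counts, taken as the detection floor, corresponded to 0.361 to 0.642 counts-per-million (CPM). CPM refer to the TMM-scaled library and serve to compare 1 transcript between cultures, whereas transcripts-per-million (TPM), which account for length, serve to compare transcripts with each other. Floors and counting intervals cover counting error only. In TPM, the 53 transcripts together summed to 1690 to 1791 in CV, 1559 to 1627 in ENR and 4518 to 4867 in EN, so that the sum in EN did not overlap the other cultures. Fold changes come from edgeR's quasi-likelihood test with Benjamini-Hochberg adjustment over all 9288 transcripts tested, with an adjusted p under 0.01 as the threshold.

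Between CV and EN, 47 of 53 carrier transcripts differed, 29 higher and 18 lower in EN, beside 76.4% of all transcripts tested, 35.2% higher and 41.2% lower. For all 47 the 4 values of one culture did not overlap the 4 of the other, which held for 76.5% of all transcripts. The median log2 fold change of the carriers was 0.76, beside -0.08 for all transcripts. At least 4-fold differences numbered 24 among the carriers, 20 higher and 4 lower in EN. Of all 9288 transcripts tested, 14.7% differed by as much, 518 higher and 851 lower in EN. Rises made up 9 of 12 hexose, 3 of 4 sugar phosphate, 2 of 3 fatty acid, 2 of 3 organic cation and 3 of 5 bile acid and organic anion carriers. Carriers for choline had no rise among 4, and those for nucleotide sugars fell more often than they rose. The scale matters for the direction of small changes. The median of all transcripts moved from -0.08 to -0.49 with spike-in scaling and to 0.69 with mRNA copy numbers. With copy numbers the split of the carriers became 33 higher and 7 lower. Both scales rest on spike-in RNA, yet they moved the median in opposite directions. Copies summed over all transcripts ranged from 498750 to 1577575 among the ENR libraries.

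**Figure D1:**
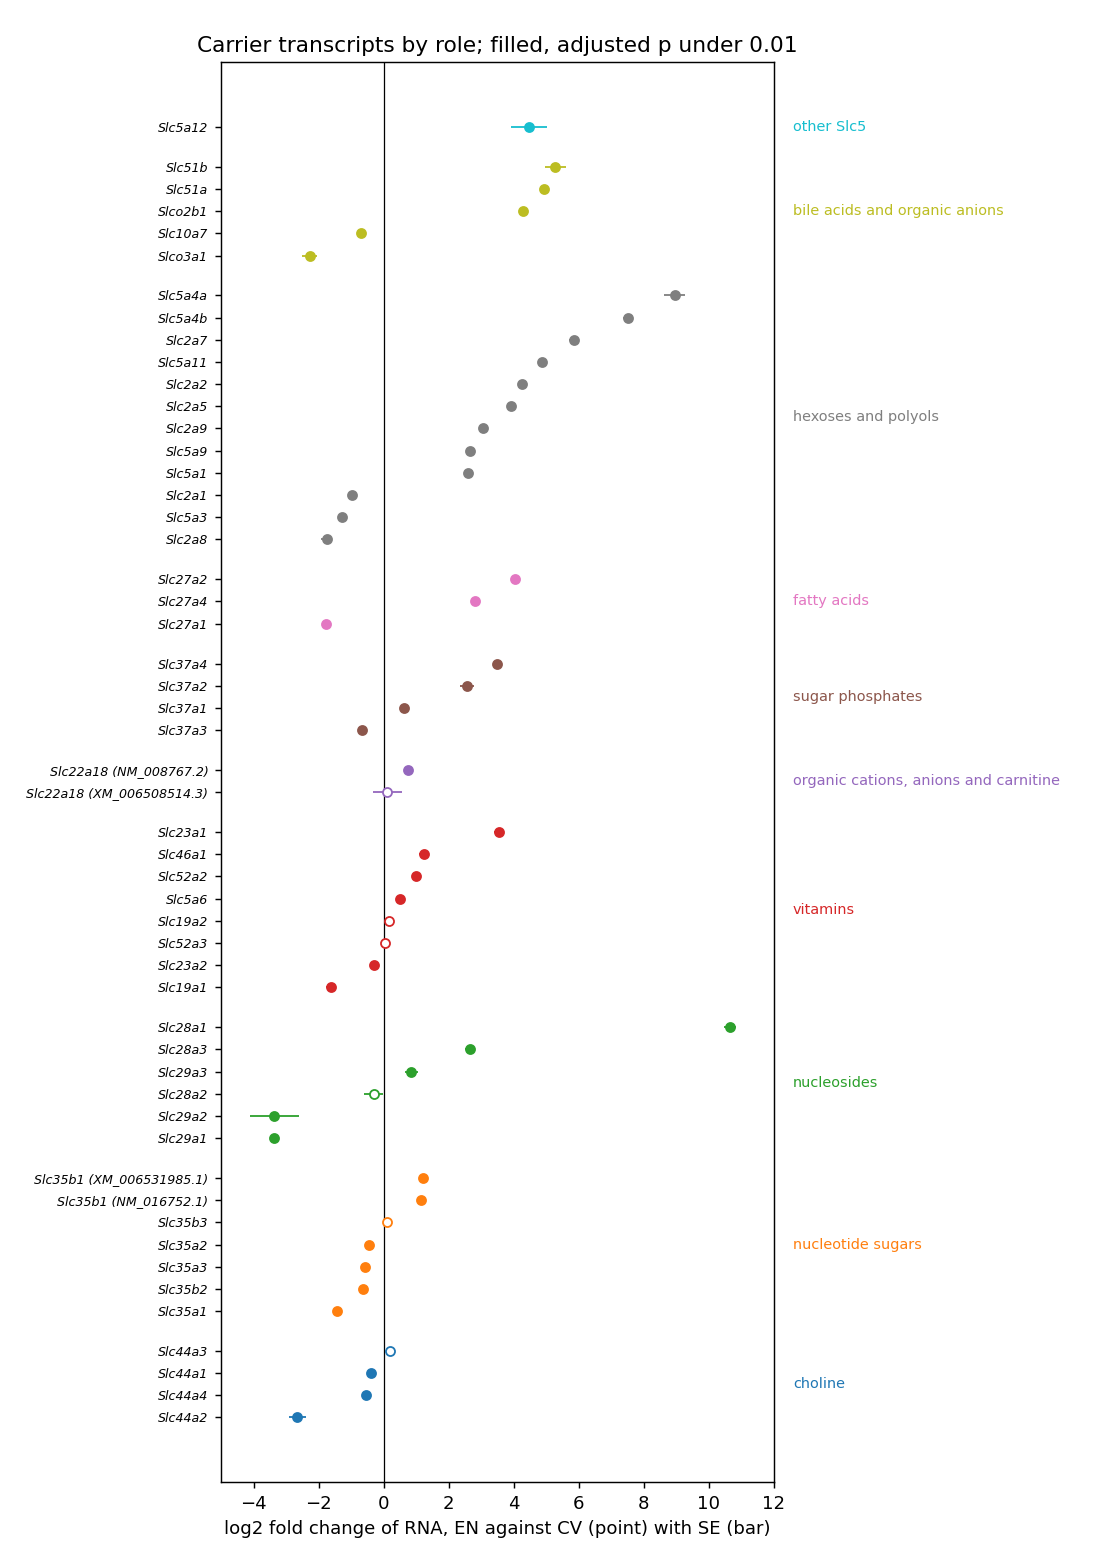
RNA log2 fold change of EN against CV (horizontal axis) for the carrier transcripts reported here (vertical axis), grouped by role; points are fitted values, bars their SE, and filled points passed an adjusted p under 0.01. Hexose carriers spread from -1.75 for Slc2a8 to 8.95 for Slc5a4a, and the nucleoside carriers span the whole range, from -3.38 for Slc29a1 to 10.67 for Slc28a1.

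The 12 hexose and polyol carriers all differed between CV and EN, 9 higher and 3 lower in EN, with a median log2 fold change of 3.49. Together they summed to 431 to 464 TPM in CV, 419.5 to 468 in ENR and 2595 to 2831 in EN, more than every other role in EN. Slc5a1 (SGLT1), the Na+-coupled glucose and galactose carrier of the brush border, was the most abundant carrier in all 3 cultures, with 286 ± 9.51 TPM in CV, 259 ± 11.1 in ENR and 1381 ± 39.1 in EN (mean ± SD, n = 4). Slc5a1 stood at 695, 667, 668 and 699 CPM in CV, 704, 647, 696 and 713 in ENR and 4123, 4078, 4235 and 3985 in EN. CV and ENR overlapped, and every EN library lay far above both, a 6.02-fold rise over CV (log2 fold change 2.59 ± 0.038, SE, adjusted p = 2.82e-17).

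Slc2a2 (GLUT2), the low-affinity hexose carrier known for the basolateral exit of glucose and fructose, stood at 48.5, 49.1, 42 and 50.0 CPM in CV, 95.9, 84.3, 82.3 and 110.5 in ENR and 830.5, 883, 1005 and 888 in EN. The cultures did not overlap and rose in the order CV, ENR, EN, with a 19-fold difference between EN and CV (log2 fold change 4.25 ± 0.091, SE, adjusted p = 1.65e-15). Slc2a5 (GLUT5), the fructose carrier, stood at 21.4, 20.2, 22 and 26.1 CPM in CV, 53.3, 53.7, 62.1 and 52.9 in ENR and 339, 325, 379 and 333 in EN, in the same order and again without overlap (log2 fold change 3.93 ± 0.077, SE, adjusted p = 6.4e-16). Slc2a7, a brush border hexose carrier, stood at 0.539, 1.20, 1.33 and 0.964 CPM in CV, 4.86, 4.91, 4.10 and 5.91 in ENR and 61.2, 57.4, 62.4 and 58.2 in EN. Only single-digit values were seen in CV and ENR (log2 fold change 5.87 ± 0.15, SE, adjusted p = 1.1e-14). In TPM, Slc2a2 reached 476 ± 34.9 in EN, Slc2a5 179.8 ± 12.3 and Slc2a7 54 ± 2.62 (mean ± SD, n = 4), so that the order of these with Slc5a1 in EN was Slc5a1, Slc2a2, Slc2a5, Slc2a7, with steps larger than the spread between libraries.

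Slc5a4a and Slc5a4b encode near-identical SGLT3 proteins, known as glucose sensors rather than carriers, and how their reads were split is uncertain. Slc5a4b stood at 2.70, 1.87, 2.52 and 4.34 CPM in CV, 32.6, 31.4, 40.4 and 44.2 in ENR and 538, 509, 580.1 and 506 in EN, with no overlap between cultures (log2 fold change 7.52 ± 0.14, SE, adjusted p = 3.27e-16). Slc5a4a stood at 0, 0, 0.398 and 0 CPM in CV, 3.07, 1.15, 2.13 and 1.76 in ENR and 55.2, 58.5, 58.7 and 56.9 in EN. Its 3 counts over the 4 CV libraries faced 1409 in EN, a ratio of 585 with a 95% counting interval of 199.8 to 2841. The paralogs thus showed the same order of cultures. Slc5a11 (SMIT2), a myo-inositol carrier, stood at 6.47, 4.81, 3.84 and 5.42 CPM in CV, 10.5, 7.85, 9.41 and 9.44 in ENR and 144, 147, 169.8 and 146 in EN. EN lay far above both other cultures, which did not overlap each other either (log2 fold change 4.88 ± 0.11, SE, adjusted p = 1.9e-15). The other risers of the role were Slc2a9, a urate carrier, with a log2 fold change of 3.05 ± 0.12 (SE), and Slc5a9 (SGLT4), a mannose carrier, with 2.67 ± 0.12.

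Among the hexose and polyol carriers, 3 fell. Slc2a1 (GLUT1), the glucose carrier of proliferating cells, stood at 110.4, 109, 113 and 111 CPM in CV, 46.9, 51.4, 49.8 and 44 in ENR and 60.6, 52, 63.9 and 52.1 in EN. CV was 1.94-fold above EN (log2 fold change -0.95 ± 0.065, SE, adjusted p = 1.71e-09), and ENR was lowest. Slc2a8 (GLUT8), an intracellular hexose carrier, stood at 16.8, 17.4, 18.6 and 21.2 CPM in CV, 8.71, 8.51, 5.92 and 8.05 in ENR and 6.30, 4.07, 6.78 and 4.61 in EN, with CV above both other cultures (log2 fold change -1.75 ± 0.16, SE, adjusted p = 7.69e-08). Slc5a3 (SMIT1), the other myo-inositol carrier, stood at 29.1, 26.8, 25.6 and 25.8 CPM in CV, 25.9, 27.2, 24.6 and 25 in ENR and 11.4, 10.9, 10.7 and 11.2 in EN. CV and ENR overlapped and EN lay below both (log2 fold change -1.27 ± 0.078, SE, adjusted p = 4.1e-10), so that the pair of myo-inositol carriers moved in opposite directions between CV and EN.

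**Figure D2:**
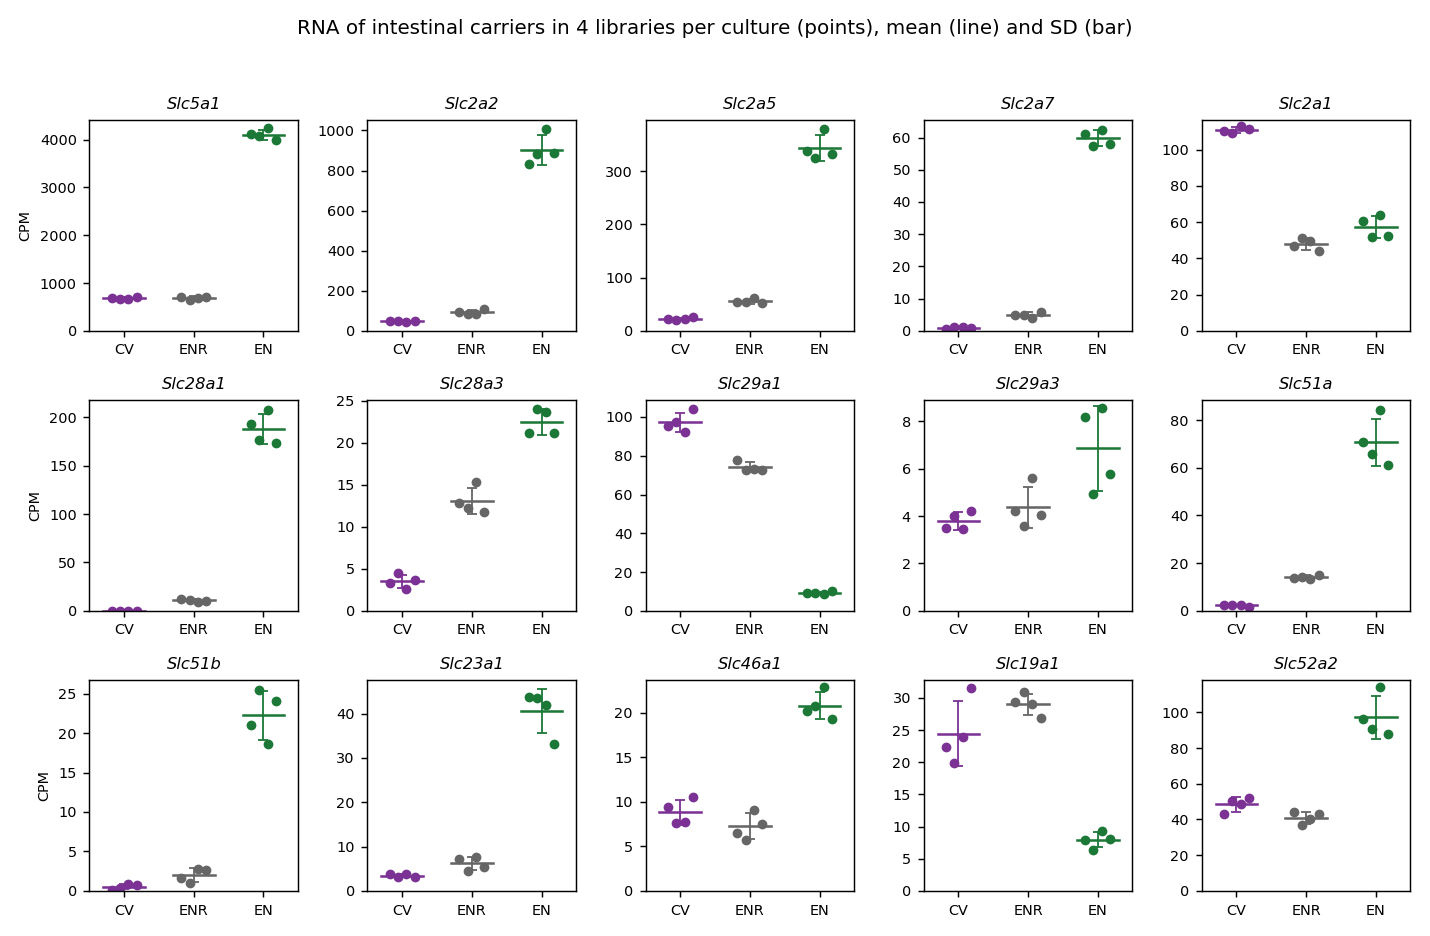
RNA of 15 carriers in CPM (vertical axis, linear, from 0) by culture (horizontal axis); each point is 1 library, the line the mean and the bar the SD of 4 libraries. Slc5a1, Slc2a2, Slc2a5, Slc2a7, Slc28a1, Slc51a, Slc51b, Slc23a1, Slc46a1 and Slc52a2 stand high in EN alone, whereas Slc29a1 and Slc19a1 stand low in EN and Slc2a1 high in CV.

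The 4 Slc37 members were grouped as sugar phosphate carriers, of which Slc37a4 moves glucose-6-phosphate into the endoplasmic reticulum. Of the 4, 3 rose and 1 fell between CV and EN (median log2 fold change 1.59). Slc37a4, which feeds glucose-6-phosphate to glucose-6-phosphatase, stood at 35.4, 33.6, 38.6 and 38.8 CPM in CV, 132, 126, 127 and 125 in ENR and 404, 379, 459 and 412 in EN. The cultures did not overlap (log2 fold change 3.50 ± 0.063, SE, adjusted p = 2.8e-16). Slc37a2 rose from a mean of 1.23 CPM in CV to 7.38 CPM in EN and Slc37a1 from 44.9 to 69.4 CPM. Slc37a3 went from 41.1 to 26.0 CPM, a log2 fold change of -0.66 that was 0.089 with mRNA copy numbers. The list of 16 genes of sugar digestion and use held 19 transcripts, 13 higher and 4 lower in EN than in CV. Among them, the disaccharidases Sis, Lct and Treh rose by 4.50, 4.41 and 7.53 on the log2 scale, the fructose kinase Khk (its most abundant transcript) by 2.91, and the phosphatase G6pc by 4.26. The hexokinases Hk1 and Hk2, which trap glucose for the cell's own use, and the galactokinase Galk1 fell by 3.50, 2.75 and 1.63.

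Nucleoside carriers comprise concentrative (Slc28) and equilibrative (Slc29) members. Among the 6, 3 rose, 2 fell and 1 did not pass the test (median log2 fold change 0.28). Slc28a1 (CNT1), the Na+-coupled carrier of pyrimidine nucleosides, stood at 0, 0.133, 0.265 and 0 CPM in CV, 11.9, 11.5, 9.57 and 10.2 in ENR and 193, 177, 208 and 174 in EN. It was at or under the floor in CV, with 3 counts over the 4 libraries against 4640 in EN, a ratio of 1927 with a 95% counting interval of 659 to 9348. The difference from EN to ENR, 4.12 on the log2 scale, was also without overlap. Slc28a3 (CNT3), which takes purine and pyrimidine nucleosides, stood at 3.37, 4.54, 2.65 and 3.61 CPM in CV, 12.8, 12.3, 15.3 and 11.8 in ENR and 21.2, 24, 23.7 and 21.2 in EN. The cultures rose in the order CV, ENR, EN without overlap (log2 fold change 2.66 ± 0.14, SE, adjusted p = 9.51e-11). Slc28a2 (CNT2), the purine-selective carrier, stood at 3.23, 6.14, 3.31 and 4.82 CPM in CV, 3.33, 5.40, 4.86 and 3.02 in ENR and 4.96, 2.78, 3.03 and 3.17 in EN. Its cultures overlapped throughout, with a log2 fold change of -0.31 ± 0.28 (SE, adjusted p = 0.319), so no difference was detectable at this depth.

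Of the 3 equilibrative carriers, 2 fell and 1 rose. Slc29a1 (ENT1), the main equilibrative nucleoside transporter of the cell surface, stood at 95.3, 97.2, 92.1 and 104 CPM in CV, 78, 72.8, 73 and 72.9 in ENR and 9.11, 9.21, 8.56 and 10.2 in EN. EN was 10.4-fold below CV (log2 fold change -3.38 ± 0.068, SE, adjusted p = 7.89e-16) and well below ENR, and ENR lay slightly below CV. Slc29a2 (ENT2) stood at 0.674, 1.20, 0.398 and 1.69 CPM in CV, 0.768, 0.982, 0.759 and 1.38 in ENR and 0, 0, 0.178 and 0.144 in EN. With 31 counts over the CV libraries against 2 in EN, the ratio of CV to EN was 12.4 with a 95% counting interval of 3.17 to 107. Slc29a3 (ENT3), known for export from lysosomes, stood at 3.50, 4.00, 3.45 and 4.22 CPM in CV, 4.22, 3.60, 5.62 and 4.03 in ENR and 8.17, 4.92, 8.56 and 5.76 in EN. EN lay above CV without overlap, by a smaller step (log2 fold change 0.86 ± 0.21, SE, adjusted p = 0.00148), and EN overlapped ENR. In TPM, Slc29a1 was the leading nucleoside carrier in CV, with 79 ± 4.82, and Slc28a1 in EN, with 87.3 ± 7.50 (mean ± SD, n = 4). Among 13 transcripts of nucleoside salvage and breakdown, 6 rose and 6 fell. Of enzymes that break nucleosides and purine bases down, Cda, Xdh, Pnp and Upp1 rose by 2.71, 2.33, 2.10 and 0.68 on the log2 scale, and the adenosine deaminase Ada fell by 0.96. Of salvage enzymes, Tk1, Dck, Uck2 and Hprt fell by 3.10, 2.29, 2.11 and 0.59 and 1 transcript of Adk fell by 0.29, whereas Uck1 and Aprt rose by 0.32 and 0.19 on the TMM scale, the only scale run for these enzymes. The other Adk transcript gave -0.82 (adjusted p = 0.332).

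Vitamin carriers were mixed, with 4 of 8 higher and 2 lower in EN than in CV (median log2 fold change 0.34). Slc23a1 (SVCT1), the epithelial ascorbate carrier, stood at 3.77, 3.07, 3.84 and 3.13 CPM in CV, 7.30, 4.42, 7.59 and 5.41 in ENR and 43.7, 43.5, 41.9 and 33.3 in EN. EN exceeded both other cultures without overlap (log2 fold change 3.55 ± 0.16, SE, adjusted p = 9.69e-12). Slc23a2 (SVCT2), the ascorbate carrier found in most cells, stood at 169, 162, 174 and 155 CPM in CV, 39.3, 43.7, 46 and 39.9 in ENR and 129, 129, 144 and 133 in EN. ENR was lowest, and EN lay a little below CV (log2 fold change -0.30 ± 0.05, SE), a direction that turned to 0.49 with mRNA copy numbers. In TPM, Slc23a2 exceeded Slc23a1 in CV, at 40.6 ± 1.76 against 1.92 ± 0.225, and in EN, at 26.5 ± 1.21 against 18.1 ± 2.26 (mean ± SD, n = 4), by a smaller factor in EN.

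Folate carriers went in opposite directions. Slc46a1 (PCFT), the proton-coupled folate carrier of the upper intestine, stood at 9.43, 7.61, 7.69 and 10.5 CPM in CV, 6.53, 5.73, 9.11 and 7.55 in ENR and 20.2, 20.8, 22.8 and 19.3 in EN. EN lay above both other cultures, which overlapped (log2 fold change 1.23 ± 0.14, SE, adjusted p = 7.71e-07). Slc19a1 (RFC), the reduced folate carrier of most cells, stood at 22.4, 19.9, 23.9 and 31.6 CPM in CV, 29.3, 30.9, 29 and 26.9 in ENR and 7.91, 6.42, 9.28 and 8.06 in EN. Here EN lay below both (log2 fold change -1.62 ± 0.15, SE, adjusted p = 4.66e-08). In TPM, Slc19a1 led Slc46a1 in CV, at 21.9 ± 4.71 against 7.67 ± 1.29, and the order was turned in EN, at 5.67 ± 0.851 against 14.5 ± 0.964 (mean ± SD, n = 4).

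Among carriers of B vitamins, Slc52a2 (RFVT2), a riboflavin carrier, stood at 42.9, 50.5, 48.4 and 52.2 CPM in CV, 44, 36.7, 40.2 and 43.2 in ENR and 96.4, 90.6, 114 and 87.8 in EN. Every EN library was above both other cultures (log2 fold change 1.00 ± 0.086, SE, adjusted p = 2.73e-08). Slc52a3 (RFVT3), the apical riboflavin carrier, stood at 23.9, 21.5, 20.5 and 26.3 CPM in CV, 10.5, 10.1, 8.81 and 12.5 in ENR and 22.2, 21.4, 26.2 and 25.6 in EN. CV and EN overlapped (log2 fold change 0.05 ± 0.11, SE, adjusted p = 0.67), with ENR below both. Slc19a2, a thiamine carrier, stood at 64.1, 59.8, 67.9 and 67.2 CPM in CV, 62.6, 60.7, 56.2 and 58.5 in ENR and 66.9, 73.7, 85.1 and 69.4 in EN. CV and EN came close to each other, with a log2 fold change of 0.18 ± 0.071 (SE) that did not pass the test (adjusted p = 0.0278). Slc5a6 (SMVT), which takes up biotin and pantothenate, stood at 11.3, 10.9, 11.1 and 14.1 CPM in CV, 16.4, 13.1, 15.8 and 16.4 in ENR and 16.3, 17.8, 18.6 and 15.1 in EN. EN lay above CV, ENR overlapped EN, and the step was small (log2 fold change 0.50 ± 0.11, SE, adjusted p = 0.000828). Of 15 listed transcripts of vitamin handling, 8 rose and 5 fell; the retinol binding protein Rbp2 rose by 3.85 on the log2 scale, and the folate enzymes Ggh and Fpgs fell by 2.38 and 1.79.

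Bile acid and organic anion carriers showed 3 rises and 2 falls among 5 (median log2 fold change 4.30). Slc51a and Slc51b encode the subunits of the organic solute transporter through which bile acids leave the enterocyte. Slc51a stood at 2.29, 2.40, 2.65 and 1.81 CPM in CV, 14, 14.4, 13.4 and 15 in ENR and 70.9, 65.9, 84.4 and 61.2 in EN, and Slc51b at 0.135, 0.400, 0.928 and 0.723 CPM in CV, 1.66, 0.982, 2.73 and 2.64 in ENR and 21, 25.5, 18.6 and 24 in EN. Both rose in the order CV, ENR, EN without overlap between cultures, by 4.94 ± 0.13 (SE, adjusted p = 1.93e-14) and 5.29 ± 0.32 (SE, adjusted p = 3.45e-10) on the log2 scale. In TPM, the subunits reached 65.3 ± 9.16 and 90.9 ± 12 in EN (mean ± SD, n = 4), and their values per library overlapped.

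Slco2b1 (OATP2B1), an organic anion carrier that is also known for drug uptake, stood at 12.5, 9.61, 9.54 and 11.7 CPM in CV, 91.5, 104, 93.7 and 96.5 in ENR and 217, 204, 224 and 212 in EN. On the log2 scale most of its rise lay between CV and ENR (log2 fold change 4.30 ± 0.073, SE, adjusted p = 1.23e-16 for EN against CV). Slco3a1 (OATP3A1), another organic anion carrier, stood at 7.41, 7.61, 5.96 and 8.19 CPM in CV, 2.82, 1.80, 2.73 and 2.14 in ENR and 1.21, 1.28, 1.43 and 2.02 in EN. CV lay above both other cultures (log2 fold change -2.27 ± 0.23, SE, adjusted p = 1.57e-07), and EN was near the floor. Slc10a7, a relative of the bile acid carriers by sequence, stood at 26.3, 29.2, 22.7 and 22.9 CPM in CV, 33.3, 34, 31.3 and 30.0 in ENR and 16.2, 15.2, 15.7 and 15.1 in EN. ENR was highest and EN lowest, with a log2 fold change of EN against CV of -0.70 ± 0.093 (SE) that was 0.0395 with mRNA copy numbers. Of 8 listed transcripts of bile acid and organic anion handling, 4 rose and 3 fell. The export pumps Abcc2, Abcg2 and Abcc3 rose by 1.51, 1.49 and 1.38 on the log2 scale, and the bile acid receptor Nr1h4 (FXR) by 0.74. The export pumps Abcc4 and Abcb1b fell by 3.86 and 3.26.

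Fatty acid transport proteins trap fatty acids as acyl-CoA. Slc27a4 (FATP4), the main member of the family in the small intestine, stood at 80.1, 72.5, 79.3 and 89.2 CPM in CV, 94.2, 92.4, 97.3 and 102 in ENR and 579.7, 561, 575 and 531 in EN. EN exceeded both other cultures, which lay close to each other (log2 fold change 2.80 ± 0.055, SE, adjusted p = 6.65e-16). Slc27a2, which activates very long-chain fatty acids, rose in 2 steps, from a mean of 32.1 CPM in CV to 158 CPM in ENR and 532 CPM in EN (EN against CV 4.05 ± 0.068 on the log2 scale, SE). Slc27a1 (FATP1), known from muscle and fat, stood at 50.3, 49.3, 40.8 and 49.3 CPM in CV, 28.7, 20.9, 26.4 and 20.5 in ENR and 14.6, 12.2, 15.9 and 12.7 in EN, falling in the order CV, ENR, EN (log2 fold change -1.77 ± 0.12, SE, adjusted p = 1.69e-09). Among 13 transcripts of fatty acid and choline use, 11 rose and 2 fell. The fatty acid receptor Cd36 rose by 5.52 on the log2 scale and Crat by 2.67, and Acsl3 fell by 1.85.

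Choline carriers supply phospholipid synthesis. Of 4, 3 fell in EN against CV and Slc44a3 did not pass the test (0.19, adjusted p = 0.0314). Slc44a1 (CTL1), the general choline carrier, stood at 446, 467, 474 and 451 CPM in CV, 420.2, 449, 442 and 439 in ENR and 337, 344, 347 and 384 in EN. EN lay below both other cultures, with a log2 fold change of -0.38 against CV that was 0.44 with mRNA copy numbers. Slc44a4, known as a carrier of thiamine pyrophosphate, stood at 135, 134, 136 and 140.5 CPM in CV, 56.6, 56.6, 59.5 and 60.4 in ENR and 91.4, 93.6, 97.4 and 89.7 in EN. CV was highest and ENR lowest, so that EN lay above ENR (0.67 on the log2 scale), and the log2 fold change of EN against CV, -0.55 ± 0.040 (SE), was 0.24 with mRNA copy numbers. Slc44a2 stood at 9.43, 7.74, 7.16 and 9.40 CPM in CV, 9.60, 9.33, 7.90 and 7.80 in ENR and 0.804, 0.856, 1.07 and 2.45 in EN. EN lay below both other cultures (log2 fold change -2.65 ± 0.27, SE, adjusted p = 1.97e-07). Among organic cation carriers, Slc22a18 had 2 transcripts, whose sum rose by 0.70 on the log2 scale. Slc5a12 (SMCT2), a low-affinity monocarboxylate carrier, stood at 0.135, 0, 0.133 and 0.120 CPM in CV, 0.128, 0.327, 0 and 0.252 in ENR and 1.74, 2.78, 2.32 and 3.46 in EN. It was at or near the floor in CV and ENR, and its 63 counts in EN against 3 in CV gave a ratio of 26.2 with a 95% counting interval of 8.55 to 130.

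Nucleotide sugar carriers serve glycosylation in the Golgi. Of 7 transcripts, 2 rose and 4 fell between CV and EN, none by 4-fold or more (median log2 fold change -0.45). Slc35a1, the CMP-sialic acid carrier, stood at 96.2, 96.2, 99.7 and 87.8 CPM in CV, 56.6, 56.8, 58.2 and 57.1 in ENR and 38.2, 32.1, 36.4 and 34.1 in EN. It fell in the order CV, ENR, EN without overlap (log2 fold change -1.42 ± 0.058, SE, adjusted p = 3.02e-12). Slc35a2 (UDP-galactose), Slc35a3 (UDP-N-acetylglucosamine) and Slc35b2, which takes up the sulfate donor PAPS, had log2 fold changes of -0.45, -0.58 and -0.62, which turned to 0.33, 0.22 and 0.15 with mRNA copy numbers. Slc35b3, the other PAPS carrier, did not pass the test (0.10, adjusted p = 0.0502). Both transcripts of Slc35b1, which exchanges ATP and ADP across the endoplasmic reticulum, rose, and their sum rose by 1.19. Of 14 transcripts that make nucleotide sugars and the sulfate donor, 8 rose and 4 fell. Papss2, which makes PAPS, rose by 4.86 on the log2 scale and Ugdh by 1.48, whereas Papss1, the other PAPS enzyme, fell by 0.70. Cmas, which makes CMP-sialic acid, fell by 1.03, whereas Gne, also of sialic acid synthesis, rose by 0.84.

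Against ENR, EN differed in 46 of 53 transcripts, 35 higher and 11 lower, beside 72.7% of all transcripts tested, 35.5% higher and 37.2% lower. The carriers' median log2 fold change was 1.15, beside -0.01 for all transcripts. At least 4-fold differences numbered 17 among the carriers, 14 higher and 3 lower in EN. Of all transcripts, 10.7% differed by as much, 339 higher and 654 lower in EN. With mRNA copy numbers the split of the carriers called was 40 higher and 4 lower. CV against ENR differed in 36, 15 higher and 21 lower in CV, beside 60.0% of all transcripts tested, 30.2% higher and 29.8% lower, with a median of -0.02, and with TPM the split was 21 higher and 18 lower. At least 4-fold differences numbered 7 among the carriers, all lower in CV. Of all transcripts, 4.30% differed by as much, 227 higher and 172 lower in CV. The 3 comparisons share libraries. The steps differed by gene. Slc5a1 and Slc27a4 rose by 2.57 and 2.54 on the log2 scale from ENR to EN, and CV against ENR gave -0.02 and -0.27. For Slc28a1, Slco2b1, Slc51a and Slc27a2, CV against ENR gave -6.55, -3.15, -2.63 and -2.30, and EN against ENR gave 4.12, 1.15, 2.31 and 1.75.

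In 8 transcripts ENR lay below both other cultures with both differences past the threshold, and in 1, Slc10a7, above both. Slc23a2 was the clearest, with EN above ENR by 1.67 ± 0.060 and CV above ENR by 1.97 ± 0.059 (log2 ± SE). Slc52a3 showed 1.18 and 1.13. The main Slc22a18 transcript stood at 34, 39.8, 36.2 and 39.8 CPM in CV, 24.3, 17.7, 24.1 and 19.9 in ENR and 62.7, 55.7, 72.4 and 62 in EN. Its differences from ENR were 1.55 for EN and 0.80 for CV. Slc44a4 showed 0.67 and 1.23. The NM_016752.1 transcript of Slc35b1 stood at 36.8, 31, 33.4 and 42.4 CPM in CV, 27.3, 24.5, 28.4 and 22.8 in ENR and 84.3, 84.1, 75.6 and 76.6 in EN. It differed from ENR by 1.64 for EN and 0.48 for CV. Slc2a1, Slc35b3 and Slc35a2 lay lowest in ENR by smaller amounts, and with spike-in scaling EN lay below ENR in these 3, at -0.26, -0.18 and -0.30.

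**Figure D3:**
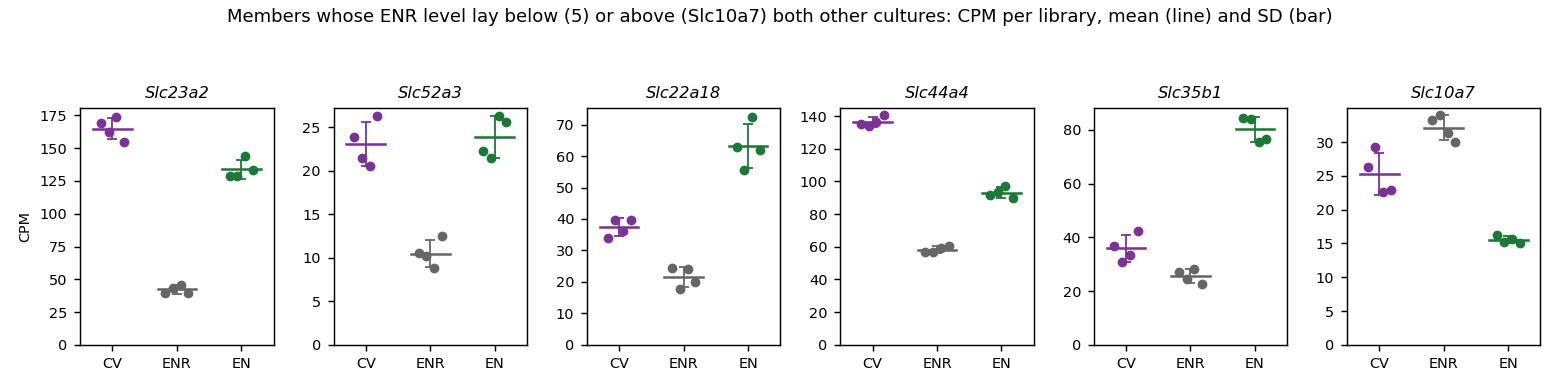
RNA in CPM (vertical axis, from 0) by culture for the 6 carriers whose ENR level was furthest from both other cultures on the same side; each point is 1 library, the line the mean and the bar the SD of 4 libraries. ENR is lowest in the first 5 panels, and Slc10a7 is highest in ENR.

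The cultures differed in cell type markers in the same comparisons. All 8 enterocyte markers were higher in EN than in CV (median log2 fold change 2.16), and their summed level ranged from 7558 to 7960.4 CPM in CV, 8550.3 to 9661 in ENR and 54401 to 56475 in EN. All 6 stem cell markers were lower in EN, summing to 39.2 to 44.5 CPM beside 489 to 549.9 in CV and 1733 to 1882 in ENR. Most of the ENR sum was Olfm4, with a mean of 1229 CPM in ENR and 10.9 in CV. Of the 6, 1 was higher and 4 were lower in CV than in ENR. Goblet markers rose in 5 of 5 transcripts tested, enteroendocrine markers in 4 of 4 and tuft markers in 3 of 3. Their medians against CV were 3.42, 6.47 and 6.46. Against ENR all of them rose too, with medians of 2.45, 1.86 and 1.68, beside 2.57 for enterocyte markers. Paneth markers rose in 2 and fell in 2 against CV. The study described Defa6, Muc2, Dclk1 and Reg4 as not enriched in EN over ENR. In RNA here, EN against ENR gave -1.30, 2.73, 1.75 and 1.74 for these 4. Of 7 listed markers of cells outside the epithelium, Cd3e was at 0 in every library, and the list summed to at most 29.5 CPM, most of it Vim. In bulk libraries, fewer cells of a type and less RNA per cell cannot be told apart. The part of these markers in the changes of the carriers was not tested.

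Chromatin at the start sites was read from scores per region, in a table of 94469 regions, of which 67 lay within 500 bp of an annotated start site of 48 of the 51 carrier genes. Slc27a1, Slc28a2 and Slc2a5 had none. Scores were compared as log2(score + 1) with limma, with Benjamini-Hochberg adjustment over all regions and an adjusted p under 0.05 as the threshold. The ATAC score differed between CV and EN in 41 of the 67, 30 higher and 11 lower in EN, beside 34.5% of all regions near start sites, 18.6% higher and 15.9% lower. Their median difference was 0.33, beside 0.00 for all regions near start sites. Among 206 distal regions whose nearest start site within 50000 bp was a carrier's, 66 were higher and 25 lower, beside 19.6% and 15.6% of all regions. Of the 27 genes with an RNA rise and a region, 20 (74.1%) had a higher ATAC score, beside 33.2% of 2811 genes with an RNA rise, and 3, Slc22a18, Slc37a1 and Slc46a1, had a lower one. Of the 17 with an RNA fall, 3 (Slc29a1, Slc2a8 and Slc44a4) had a lower score and 3 (Slc19a1, Slc44a1 and Slco3a1) a higher one, beside 20.4% and 21.6% of 3434 genes.

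ATAC scores per library are given for 8 carriers. At the start site of Slc51a, whose upstream bases are printed above, the ATAC score was 5, 5, 3 and 2 in CV, 17, 22, 14 and 14 in ENR and 31, 35, 20 and 30 in EN. CV lay below both other cultures, and the lowest EN value lay within the ENR range (log2 difference 2.69 ± 0.26, SE, adjusted p = 4.17e-07). Slc51b scored 13, 15, 15 and 9 in CV, 30, 43, 24 and 28 in ENR and 46, 57, 45 and 60 in EN. All EN values exceeded all ENR values, and all ENR values all CV values (log2 difference 1.93 ± 0.20, SE, adjusted p = 9.22e-07). Slc28a1 scored 0, 1, 1 and 0 in CV, 1, 1, 0 and 1 in ENR and 4, 10, 2 and 4 in EN. These scores are low, and EN exceeded CV (log2 difference 1.92 ± 0.43, SE, adjusted p = 0.0018). Slc5a11 scored 6, 7, 6 and 3 in CV, 14, 12, 11 and 6 in ENR and 29, 32, 27 and 35 in EN. EN stood apart from both other cultures (log2 difference 2.33 ± 0.26, SE, adjusted p = 2.34e-06). For Slc23a1 the values were 7, 9, 7 and 9 in CV, 18, 23, 16 and 12 in ENR and 77, 96, 54 and 83 in EN. EN was again apart from both (log2 difference 3.10 ± 0.21, SE, adjusted p = 9.99e-09). Slc2a7 scored 1, 1, 2 and 1 in CV, 4, 4, 1 and 2 in ENR and 31, 17, 16 and 20 in EN, at the start of a transcript inside the gene (log2 difference 3.27 ± 0.34, SE, adjusted p = 8.21e-07). Slc5a1 scored 37, 48, 45 and 67 in CV, 70, 73, 51 and 65 in ENR and 77, 92, 67 and 98 in EN. Its ENR values overlapped both other cultures, and the lowest EN value equalled the highest CV value (log2 difference 0.77 ± 0.17, SE, adjusted p = 0.00202). In the other direction, 1 region of Slc29a1 scored 10, 11, 10 and 12 in CV, 12, 15, 16 and 16 in ENR and 4, 4, 5 and 6 in EN. EN lay below both other cultures (log2 difference -1.04 ± 0.22, SE, adjusted p = 0.00098).

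**Figure D4:**
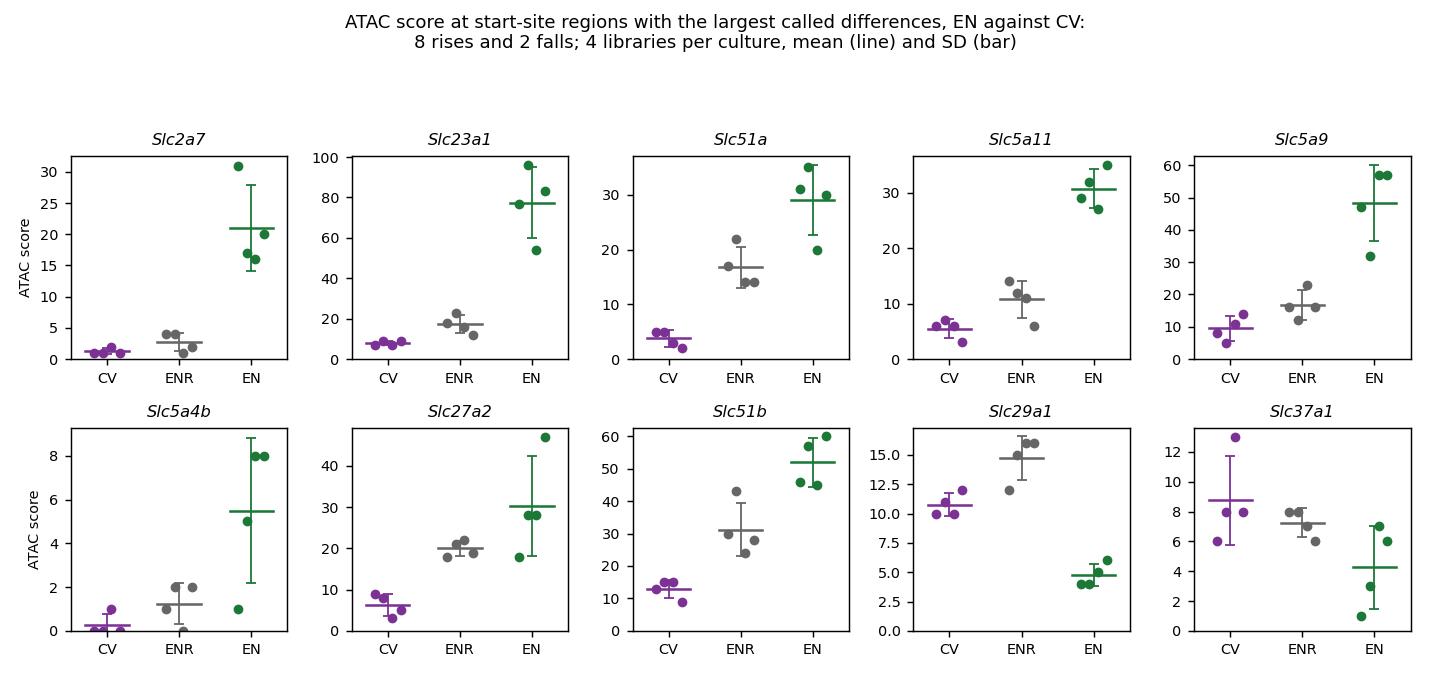
ATAC score (vertical axis, linear, from 0) by culture at 10 start-site regions. They are the 8 largest called rises and the largest called falls in EN against CV. Each point is 1 library, the line the mean and the bar the SD of 4 libraries. The first 8 panels are highest in EN, and Slc29a1 and Slc37a1 are lowest in EN.

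Histone marks moved in fewer regions. H3K27ac, a mark of active promoters and enhancers, was higher in EN than in CV in 16 of 67 start-site regions and lower in 1, beside 15.4% and 3.55% of all regions near start sites (19.0% in either direction). The lower one belonged to Slc29a1, with scores of 40 to 67 in CV and 17 to 24 in EN (log2 difference -1.38 ± 0.39, SE, adjusted p = 0.0252). The count depended on the fit and on single EN libraries: it was 1 when the spread was not modelled on the mean score and 8 without EN replicate 4, and the Slc29a1 call was lost in that and other fits that left out 1 CV or EN library. Summed over all regions, H3K27ac scores ranged from 1345873 to 1406651 in CV and from 1622103 to 1760511 in EN. With quantile normalization the split was 8 higher and 2 lower. At the Slc5a1 start site the H3K27ac score ranged from 61 to 122 in CV, 90 to 143 in ENR and 213 to 311 in EN, where EN stood above both (log2 difference 1.51 ± 0.25, SE, adjusted p = 0.000106). At a start-site region of Slc27a2, it ranged from 30 to 60 in CV and 149 to 221 in EN (log2 difference 2.13 ± 0.29, SE, adjusted p = 6.53e-06). H3K4me3, a promoter mark, was higher in 3 and lower in 2 of 65 regions, beside 4.21% and 5.39% of all regions near start sites (9.60% in either direction). Without EN replicate 1 that count of 5 became 13, and without CV replicate 2 it was 3. The Slc29a1 region was among the lower, with scores of 62 to 68 in CV and 24 to 34 in EN. For H3K27me3, a Polycomb mark, limma called none of 67, beside 0.370% of all regions near start sites, and 6 had an unadjusted p under 0.05 (8.96%, beside 7.92% of all). H3K27ac was higher at 9 of the 27 genes with an RNA rise (33.3%), beside 47.2% of all genes with a rise. CV organoids alone were treated with an inhibitor of histone deacetylases, and its part in the acetylation scores cannot be told apart from that of CHIR99021 and R-Spondin.

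The region of the first distal Slc5a1 sequence stood high in EN in both open chromatin and H3K27ac. Its ATAC score was 5, 4, 2 and 3 in CV, 17, 18, 9 and 10 in ENR and 45, 37, 33 and 50 in EN. EN lay above ENR and ENR above CV without overlap (log2 difference 3.26 ± 0.27, SE, adjusted p = 6.62e-08). Its H3K27ac score ranged from 14 to 25 in CV, 21 to 32 in ENR and 155 to 195 in EN. The second Slc5a1 region, with the HNF4 core, scored 1, 2, 2 and 1 in CV, 1, 3, 4 and 1 in ENR and 13, 15, 10 and 9 in EN. EN stood apart from CV and ENR, which overlapped (log2 difference 2.35 ± 0.35, SE, adjusted p = 4.02e-05). The distal Slc2a5 region scored 42, 51, 33 and 47 in CV, 63, 65, 50 and 65 in ENR and 54, 70, 41 and 81 in EN. Its cultures overlapped (log2 difference 0.47 ± 0.19, SE, adjusted p = 0.0614).

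Hnf4g was profiled in 1 library per culture, so no test was made, and the depths were far apart, with 84340 reads in regions in CV, 352600 in ENR and 1816497 in EN. Values are reads-per-million (RPM) of the reads in regions, with exact Poisson intervals at 95%, which cover counting error only. The share of reads in regions near start sites was 39.8% in CV, 41.2% in ENR and 58.1% in EN, which shifts RPM values between libraries. The median over the carriers' start-site regions was 0 in CV, 11.3 in ENR and 23.1 in EN, beside 0, 11.3 and 17.1 for all regions near start sites. At least 50 RPM were reached in EN by 13 of 67 start-site regions (19.4%), beside 20.8% of all. Of the 206 distal regions, 6 (2.91%) reached it in EN, beside 0.99% of all. In CV 8 (3.88%) did, beside 2.485% of all, and in ENR 4 (1.94%), beside 2.21%.

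The distal region in the Slc2a5 intron, printed above, held the most Hnf4g reads of the carriers' distal regions in EN, with 235 reads or 129 RPM (113 to 147), beside 23.7 (2.87 to 85.7) in CV and 45.4 (25.9 to 73.7) in ENR. Its EN interval lay above both others. The first distal Slc5a1 region held 134 reads or 73.8 RPM (61.8 to 87.4) in EN, beside 0 of 84340 reads in CV, where 3 counts would correspond to 35.6 RPM, and 25.5 (11.7 to 48.5) in ENR. The start-site region of Slc35a3 held the most in EN among start sites, with 223.5 RPM (202 to 246), beside 142 (73.5 to 248.5) in CV and 139 (103 to 184) in ENR, where CV and EN overlapped. Slc2a9 went the other way, with 415 RPM (289 to 577) in CV, 312 (256 to 376) in ENR and 114 (99.0 to 131) in EN. The CV value rests on 35 reads, and RPM put every library on the same total. The study reported almost no Hnf4g binding in CV, and whether these CV reads reflect binding or background was not tested. At the start site of Slc23a1, EN held 72.1 RPM (60.3 to 85.6), above 5.67 (0.69 to 20.5) in ENR, and the CV interval of 2.87 to 85.7 was too wide to separate.

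**Figure D5:**
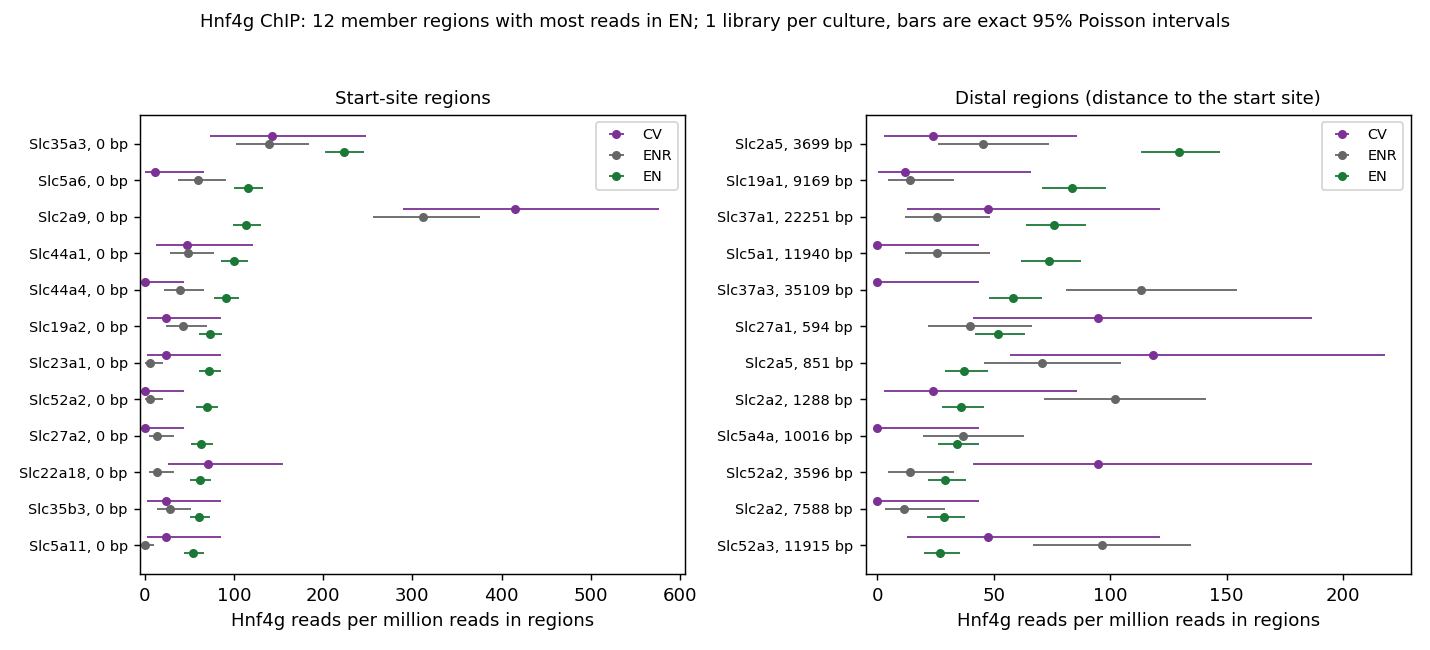
Hnf4g reads-per-million (RPM) of the reads in regions (horizontal axis) at the 12 start-site regions (left) and 12 distal regions (right) of the carriers with the most reads in EN; points are single libraries of CV, ENR and EN and bars exact 95% Poisson intervals. EN lies above the other cultures at the distal region of Slc2a5 at 3699 bp and below them at the start site of Slc2a9.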

How the data were processed

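RNA came from rRNA-depleted, strand-specific, paired-end libraries that the authors quantified with kallisto (0.43.0 per the submitters' notes) against transcripts. The authors deposited 1 table with expected counts and TPM, and a signal of mRNA copies scaled on spike-in RNA. The values of a table called normalized were expected counts, and were rounded to whole numbers. ATAC and histone reads were aligned to mm9 with BWA and filtered with Picard, and peaks were called with MACS2 (2.0). The authors deposited a rounded score for each region of the union of peaks, whose exact normalization is not given in the sources used here. For Hnf4g the deposited values were read counts per region. How the first base of a region is counted is not stated, and coordinates of regions are as in the table. RNA samples of knockout and wild-type organoids and 10 histone libraries had no columns and were not analysed here.

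Of the 12 libraries, 4 or more had to hold a count for a transcript to enter 1 fit over CV, ENR and EN with edgeR (4.0.16; quasi-likelihood F test, TMM factors, R 4.3.3), Benjamini-Hochberg adjustment over 9288 transcripts and an adjusted p under 0.01. Region scores were tested with limma (3.58.1) on log2(score + 1), with the spread modelled on the mean score (trend), for regions above 0 in at least 3 libraries of the dataset, and an adjusted p under 0.05. A region belonged to a carrier when it lay within 500 bp of one of its GENCODE start sites, and as a distal region when its nearest start site within 50000 bp was a carrier's. Tables and figures used Python (3.11.15), pandas (2.3.3) and numpy (2.4.6). Alternatives were DESeq2 (1.42.0), other scalings (upper quartile, spike-in, TPM and copies on a log2 scale with pseudocounts of 1 or 0.1), other filters and thresholds, quantile normalization, a replicate block and leaving out each library. Fits were tested on simulated data in which few features changed, with rises and falls in equal number. Far more features changed in these data, so that test cannot check the scaling between cultures.

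The members and all lists were chosen with earlier results of these data known. Values in every library were given for the 10 largest rises and falls between CV and EN without overlap, for the 6 transcripts whose ENR mean lay furthest outside both other cultures, and for well-known carriers of the small intestine. Other carriers and the enzymes of the lists were named after their values were seen. Slc5a4a and Slc5a4b, and the 2 transcripts each of Slc22a18 and Slc35b1, share reads. Slc5a3 shares its locus with Mrps6. The values of 1 carrier and 1 listed enzyme are not reported here, although the counts include them, except those of single libraries that stood apart. Sequences were read from the NCBIM37 genome with the GENCODE annotation.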

Additional observations from a re-analysis of the deposited data

Results flagged for a closer look

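A library was singled out when its gap to the nearest of the other 3 in its culture, divided by the range of all 4, exceeded Dixon's critical value at 95%. Chance gives about 1 in 20 groups. In RNA this held for 11 of 156 groups of 4 libraries, and in ATAC for 16 of 198.

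In RNA, Slc29a1 was high in ENR replicate 1, at 77.97 CPM. In ENR replicate 3, Slc2a5 (62.1 CPM) and Slc37a2 (1.215 CPM) were high and Slc5a9 (15.49 CPM) was low. Among CV libraries, Slc27a1 was low in replicate 3 (40.82 CPM), Slc5a6 high in replicate 4 (14.1 CPM), Slc5a12 listed at 0.0 CPM in replicate 2, and Slc5a4a above 0 in replicate 3 alone (0.3976 CPM). Slc5a12 had at most 1 count in each CV library, and Slc5a4a had 3 counts in that library. Among EN libraries, Slc23a1 was low in replicate 4 (33.26 CPM beside 41.9 to 43.7), where Slc44a2 was high (2.447 CPM beside 0.804 to 1.07), and Slc5a11 was high in replicate 3 (169.8 CPM beside 144 to 147).

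In ATAC scores at start sites, ENR libraries gave 10 of the 16. Replicate 1 was high for Slc35a2 (63) and low for Slco2b1 (2), replicate 2 was high for Slc37a4 (7) and for a region of Slc5a4a (14), and replicate 4 was high for a region of Slc29a1 (4). Replicate 3 was high for Slc2a9 (6), Slc35a1 (60) and Slc5a12 (12), and low for Slc28a1 (0) and for another region of Slc5a4a (8). In CV, replicate 3 was high for Slc2a7 (2) and Slc5a4b (1), and replicate 4 for Slc28a3 (12). In EN, replicate 1 was low for a region of Slc22a18 (39) and high for another region of Slc29a1 (20), and replicate 3 was high for Slc37a3 (42). Most of these are steps of a few score units among rounded values.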

How the results depend on the processing

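Counts of carriers called in RNA kept within 1.5 times under all alternatives except 1. With a requirement of at least 2-fold, CV against ENR gave 19 in place of 36. Leaving out single libraries gave 47 to 48 for EN against CV, 43 to 46 for EN against ENR and 35 to 38 for CV against ENR. With mRNA copies, EN against CV turned to 0.0395 for Slc10a7, 0.49 for Slc23a2, 0.33 for Slc35a2, 0.22 for Slc35a3, 0.15 for Slc35b2, 0.089 for Slc37a3, 0.44 for Slc44a1 and 0.24 for Slc44a4. EN against ENR then turned to 0.25 for Slc27a1, 0.28 for Slc35a1, 0.43 for Slc35a3, 0.76 for Slc35b2 and 0.64 for Slc44a1. With spike-in scaling, EN against ENR turned to -0.22 for Slc19a2, -0.26 for Slc2a1, -0.30 for Slc35a2, -0.18 for Slc35b3 and -0.28 for Slc37a1. These follow the shift of all transcripts between scales, from a median of -0.01 to 1.02 with copies and to -0.52 with spike-in scaling for EN against ENR.

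Libraries were taken as paired by their replicate number only where every same-numbered pair correlated by over 0.1. In RNA, deviations of same-numbered libraries correlated by -0.059 to 0.095, and 1 of 12 libraries correlated best with its own number. In ATAC they correlated by 0.070 to 0.46, over 0.1 in 8 of 12 pairs, and 6 of 12 libraries correlated best with their own number, which is short of that bar but a hint from the data that numbers may pair. With the replicate block the RNA counts were 48, 45 and 35, and the ATAC count 41.

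ATAC at start sites gave 9 with the thresholds of the study's region lists and 35 to 41 without single libraries, and without the trend the split was 28 higher and 5 lower. With quantile normalization the ATAC split was 28 higher and 15 lower. H3K27ac gave 1 without the trend, 10 with quantile normalization and 5 with the study's thresholds, and 8 to 16 without single libraries, with 9, 10 and 8 without EN replicates 2, 3 and 4. H3K4me3 gave 9 with quantile normalization and 0 with the study's thresholds, and 3 to 13 without single libraries, with 3 without CV replicate 2, ENR replicate 1 or EN replicate 2 and 13 without EN replicate 1. H3K27me3 gave 0 under all alternatives, 0 to 0 without single libraries. The causes were not tested. With the reads outside start-site regions as the denominator of RPM, the Hnf4g medians were 19.3 in ENR and 55.1 in EN at start sites, and 4.82 and 6.56 at distal regions.

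Counts limit the low transcripts: Slc5a4a, Slc5a12, Slc28a1 and Slc29a2 had 3 counts or fewer over 1 culture.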
